A study of Mus musculus with 64 samples.

Results

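The teneurins and the latrophilins are 2 families of cell surface proteins that bind each other, and 7 of their genes were followed here among the 55385 genes counted in the series. The teneurins are encoded by Tenm1, Tenm2, Tenm3 and Tenm4, and the latrophilins by Adgrl1, Adgrl2 and Adgrl3. The families were picked on the values of Tenm3, which changed in opposite directions in the heterozygous and the homozygous Abi1 knockout (KO) comparison, so every value of Tenm3 is given as a description, with no test. The other 6 genes were included as members of these families, with earlier results of these data known.

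Teneurins are large transmembrane proteins whose extracellular part carries EGF-like repeats, a beta-propeller and a barrel-shaped domain of bacterial toxin type. They bind each other across cell contacts and bind latrophilins, which are adhesion G protein-coupled receptors (GPCRs), on the opposing cell. The families are known mainly from nervous system wiring and synapse formation, and both are also expressed in epithelia and tumors.

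The study asked how the dose of Abi1, an adaptor of the WAVE actin-regulatory complex, affects mammary tumors of female PyMT mice, in which the polyoma middle T antigen is expressed in the mammary epithelium. RNA of 8 tumors from 4 mice was sequenced as stranded, ribosomal RNA-depleted total RNA, with 2 tumors from each mouse. G164 was the heterozygous KO (Abi1 fl/wt, Cre+) and G144 its heterozygous control (Abi1 fl/wt, Cre-). G174 was the homozygous KO (Abi1 fl/fl, Cre+) and G184 its homozygous control (Abi1 fl/fl, Cre-). All 4 mice carried PyMT (PyVT+) and at least 1 floxed Abi1 allele, and the deletion was driven by an MMTV-Cre transgene that acts in mammary epithelium and came from a mixed strain background. By the pathology records of the study, G164 and G184 were older than G144 and G174. With 1 mouse per genotype, genotype and mouse cannot be told apart. The p-values measure only the spread between tumors of the same mouse.

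Each tumor had 50346075 to 69264893 reads counted in genes, and 22187 genes had enough counts to be tested, all 7 family members among them. Abi1 had 63.1 and 66.7 CPM (counts scaled to a common library size) in the G164 tumors and 8.93 and 6.47 CPM in the G174 tumors, against 111 and 130 CPM in the G144 tumors and 114 and 122 CPM in the G184 tumors, in rising order of tumor number. Luminal epithelial markers summed to 3479 to 4172 CPM in every tumor. Markers of neurons, the cells in which these families are best known, summed to 1.27 to 3.26 CPM over 8 genes, and Syt1, Elavl3, Elavl4 and Nefl were too low to be tested. Skeletal muscle markers reached 793 CPM in G164 tumor 3 and 520 CPM in G144 tumor 8, against 17.3 to 27.3 CPM in the other 6 tumors. These 2 tumors stood apart for this reason. For the 7 family members and the lists of partner genes, results are given with and without them where this changed a call. The calls on marker genes and on genes near the members were not repeated without them.

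The promoters of Tenm3, and of Tenm4 and Tenm2, the teneurin genes that passed a test, are shown for reference, as RefSeq places them on GRCm38.p6, from 250 bases before to 50 bases after the annotated start. Capitals mark TGACGTCA, the cyclic AMP response element (CRE). Both strands were also searched for the GC box with the letters GGGCGG, for the TATA box spelled as TATAAA, and for the CCAAT box, and none of these 3 had a match in the windows shown. The start that these tumors used was not measured, and the Tenm2 and Tenm3 starts lie inside the longer genes of the GENCODE annotation.
Tenm3, chr8:48674641-48674940, minus strand: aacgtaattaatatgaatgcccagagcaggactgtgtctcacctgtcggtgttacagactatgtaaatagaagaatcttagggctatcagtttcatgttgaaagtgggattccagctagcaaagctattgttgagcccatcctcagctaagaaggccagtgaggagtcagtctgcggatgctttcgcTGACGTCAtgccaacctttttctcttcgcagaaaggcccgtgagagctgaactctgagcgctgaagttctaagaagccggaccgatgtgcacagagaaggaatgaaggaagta
Tenm4 site 1, chr7:96170994-96171293, plus strand: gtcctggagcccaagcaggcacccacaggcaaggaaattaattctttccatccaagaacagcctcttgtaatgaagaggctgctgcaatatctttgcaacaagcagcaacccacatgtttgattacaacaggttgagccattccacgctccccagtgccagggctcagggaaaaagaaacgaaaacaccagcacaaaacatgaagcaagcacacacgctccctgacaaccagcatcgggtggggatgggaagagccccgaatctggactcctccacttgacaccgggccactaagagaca
Tenm4 site 2, chr7:96211421-96211720, plus strand: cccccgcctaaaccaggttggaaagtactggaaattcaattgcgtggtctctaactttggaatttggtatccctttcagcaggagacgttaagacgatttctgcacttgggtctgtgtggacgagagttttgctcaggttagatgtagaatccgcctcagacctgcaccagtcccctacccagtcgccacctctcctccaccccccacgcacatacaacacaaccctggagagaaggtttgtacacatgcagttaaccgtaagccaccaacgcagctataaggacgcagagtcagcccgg
Tenm2, chr11:36944192-36944491, minus strand: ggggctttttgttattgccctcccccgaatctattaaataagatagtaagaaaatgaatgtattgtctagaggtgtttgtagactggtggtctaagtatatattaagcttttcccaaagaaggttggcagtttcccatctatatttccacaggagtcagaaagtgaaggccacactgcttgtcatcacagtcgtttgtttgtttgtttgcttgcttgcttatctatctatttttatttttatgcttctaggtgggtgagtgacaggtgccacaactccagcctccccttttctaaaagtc
The Tenm3 window held 10 CpG and 1 CRE match, the Tenm4 windows 6 and 12 CpG, and the Tenm2 window 2 CpG, against a median of 7 CpG over 32851 promoters of the same length. The CRE was found in 1.79% of all these promoters, the GC box in 35.7%, the TATA box in 13.6% and CCAAT in 37.4%.

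Tenm3 (ENSMUSG00000031561.16, chromosome 8, 48227682 to 48843951, minus strand, GRCm38) encodes a teneurin known for matching axons to their targets in the visual system and hippocampus. Its level was 9.91 CPM in tumor 3 and 5.29 CPM in tumor 6 of the heterozygous KO G164, against 53.8 CPM in tumor 6 and 39.7 CPM in tumor 8 of its control G144. In the homozygous KO G174 it was 121 CPM in tumor 1 and 46.7 CPM in tumor 6, against 4.37 CPM in tumor 6 and 2.61 CPM in tumor 9 of its control G184. Both heterozygous KO tumors lay below both of their control tumors, and both homozygous KO tumors lay above both of theirs. The mean was 7.60 ± 3.26 CPM in G164 against 46.8 ± 9.98 CPM in G144, and 83.7 ± 52.4 CPM in G174 against 3.49 ± 1.25 CPM in G184 (SD, n = 2 each). The log2 fold change was -2.62 (SE 0.52) in the heterozygous comparison, or 6.17-fold lower in the KO. It was 4.58 (SE 0.57) in the homozygous comparison, or 23.9-fold higher in the KO. These 2 changes are the values for which the family was picked.

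The control mice, neither of which carries Cre, were also apart for Tenm3. G184 was 13.4-fold lower than G144, with a log2 fold change of -3.74 (SE 0.55). The mice ranked G174, G144, G164 and G184, and the tumors of G174 and G144 overlapped (46.7 to 121 CPM against 39.7 to 53.8 CPM). The homozygous change minus the heterozygous change was 7.20 (SE 0.77) on the log2 scale. This difference sets G174 and G144 against G164 and G184, which are also the younger and the older mice, so genotype and age cannot be told apart. The 4 tumors of G174 and G144 held 39.7 to 121 CPM and the 4 tumors of G164 and G184 held 2.61 to 9.91 CPM, with no overlap.

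The Tenm3 values rested on 168 to 7928 counts per tumor. Each tumor was sequenced in 2 runs, and the ratio of its Tenm3 CPM in the first run to that in the second was 0.823 to 1.13, while the tumors of G174 differed 2.59-fold. Over all alternatives of processing and with each tumor left out, the log2 fold change stayed between -3.35 and -2.24 in the heterozygous comparison, 3.74 and 5.13 in the homozygous comparison, and -4.18 and -3.40 between the controls. These ranges describe the picked values and do not test their signs. Of the stranded counts at Tenm3, 0.264% were on the opposite strand.

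**Figure D1:**
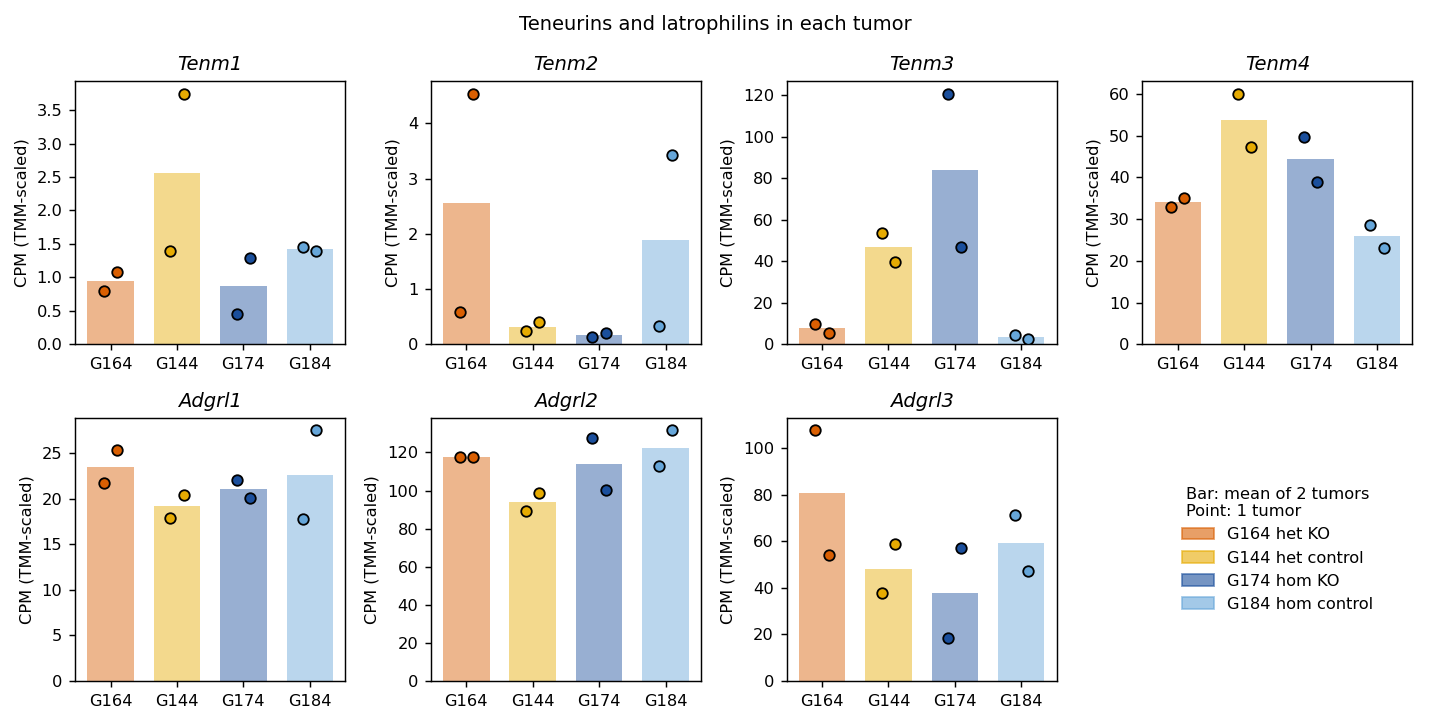
Expression of the 7 genes in TMM-scaled CPM (linear axes from 0, each with its own range), with 1 point per tumor and a bar at the mean for each mouse. Tenm3 was at 39.7 to 121 CPM in G144 and G174 and at 2.61 to 9.91 CPM in G164 and G184; Tenm4 had the same split at smaller distance, and Tenm2 was above 1 CPM only in G164 tumor 6 and G184 tumor 9.

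Tenm4 (ENSMUSG00000048078.16, chromosome 7, 96171246 to 96911093, plus strand), a teneurin with a role in oligodendrocyte maturation, was the other abundant paralog. Its level was 33.0 CPM in tumor 3 and 35.0 CPM in tumor 6 of G164, against 60.1 CPM in tumor 6 and 47.3 CPM in tumor 8 of G144. It was 49.7 CPM in tumor 1 and 39.0 CPM in tumor 6 of G174, against 28.7 CPM in tumor 6 and 23.1 CPM in tumor 9 of G184. As with Tenm3, all 4 tumors of G174 and G144 lay above all 4 tumors of G164 and G184. How many of all genes part the tumors in this way was not counted. By edgeR, 25.1% of all genes passed for the difference, which sets the same mice against each other. Tenm4 rose in the homozygous KO, with a log2 fold change of 0.78 (SE 0.18, edgeR adjusted p = 0.0352). It did not pass the test in the heterozygous comparison, where the log2 fold change was -0.66 (SE 0.18, edgeR adjusted p = 0.0843). The homozygous change minus the heterozygous change was 1.44 (SE 0.25, edgeR adjusted p = 0.0103). Between the controls, Tenm4 was lower in G184 than in G144, with a log2 fold change of -1.05 (SE 0.18, edgeR adjusted p = 0.0164).

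The Tenm4 calls depended on single tumors to different degrees. The homozygous call was lost, at adjusted p of 0.0511 to 0.178 by edgeR, without G164 tumor 3, G164 tumor 6, G174 tumor 1, G184 tumor 6 or G184 tumor 9. It was also lost with only the 2 mice compared (edgeR adjusted p = 0.0837) and without both tumors with muscle RNA (0.0885). The call on the difference was lost only without both tumors with skeletal muscle RNA, where the difference was 1.55 and the edgeR adjusted p was 0.0588. The call between the controls was lost without G144 tumor 6 (edgeR adjusted p = 0.100), without G184 tumor 9 (0.112) and without both tumors with muscle RNA (0.0986). No setting changed a sign, and DESeq2 also called Tenm4 lower in the heterozygous KO (adjusted p = 0.0149).

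Tenm2 (ENSMUSG00000049336.16, chromosome 11, 36006656 to 37235964, minus strand), a teneurin that pairs with latrophilins at synapses, was low and was carried by single tumors. It had 0.591 CPM in tumor 3 and 4.54 CPM in tumor 6 of G164, against 0.244 CPM in tumor 6 and 0.394 CPM in tumor 8 of G144. It had 0.137 CPM in tumor 1 and 0.196 CPM in tumor 6 of G174, against 0.339 CPM in tumor 6 and 3.42 CPM in tumor 9 of G184. In counts, G164 tumor 6 had 283 and G184 tumor 9 had 220, while the other 6 tumors had 9 to 31. The high tumors are thus 1 of the 2 tumors in each of the older mice, and the tumors of G174 and G144 overlapped those of G164 and G184.

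Tenm2 did not pass edgeR's test in the heterozygous comparison (log2 fold change 3.01, SE 1.24, edgeR adjusted p = 0.188) or in the homozygous comparison (-3.48, SE 1.31, edgeR adjusted p = 0.122), while DESeq2 called both (adjusted p = 0.0427 and 0.0108). The difference of the comparisons passed, at -6.49 (SE 1.80, edgeR adjusted p = 0.0398). That call was lost when G144 tumor 6, G144 tumor 8, G164 tumor 6, G174 tumor 1, G174 tumor 6 or G184 tumor 9 was left out, with edgeR adjusted p of 0.0885 to 0.137. It was also lost with the first run alone and without both tumors with muscle RNA (edgeR adjusted p = 0.0663 and 0.0892). The difference was -4.37 without G164 tumor 6 and -4.05 without G184 tumor 9. Between the controls the log2 fold change of Tenm2, G184 over G144, was 2.56 (SE 1.23, edgeR adjusted p = 0.203). Basal and myoepithelial markers summed to 767 CPM in G164 tumor 6 and 965 CPM in G184 tumor 9, but also to 914 CPM in G164 tumor 3, where Tenm2 was at 0.591 CPM, and to 124 to 417 CPM in the other 5 tumors. Their part in the Tenm2 values was not tested.

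Tenm1 (ENSMUSG00000016150.15, chromosome X, 42527866 to 43429126, minus strand), the X-linked teneurin, was the other low paralog. It had 0.800 and 1.07 CPM in G164, against 1.39 and 3.75 CPM in G144, and 0.457 and 1.29 CPM in G174, against 1.45 and 1.40 CPM in G184, in rising order of tumor number. Tumor 8 of G144 alone was above 2 CPM. The log2 fold change was -1.45 (SE 0.59, edgeR adjusted p = 0.186) in the heterozygous and -0.70 (SE 0.59, edgeR adjusted p = 0.451) in the homozygous comparison, and neither passed the test. The difference of 0.74 (SE 0.83, edgeR adjusted p = 0.538) and the change of -0.84 between the controls (SE 0.58, edgeR adjusted p = 0.357) did not pass either, and both changed sign without G144 tumor 8.

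Counted per length, the makeup of the teneurin family differed between the mice. These shares and sums carry the values of Tenm3, for which the family was picked, so they are descriptions that largely restate them. On the scale of CPM per kilobase of merged exons, Tenm3 made up 70.1% to 83.1% of the teneurin RNA in the tumors of G174 and 60.8% to 64.0% in those of G144. In G164 it made up 19.6% to 36.7%, and in G184 14.7% to 22.4%. Tenm4 had the largest share in these tumors, at 59.6% to 63.1% in G164 and 63.5% to 71.7% in G184. Its own mean level was lower there, at 1.62 and 1.23 CPM per kilobase, against 2.56 in G144 and 2.11 in G174. Tenm2 reached 15.0% in G164 tumor 6 and 17.2% in G184 tumor 9 and was at most 1.95% in the other tumors. Summed over the 4 genes, teneurin levels were 2.63 to 2.64 CPM per kilobase in G164 against 6.38 to 8.22 in G144, and 6.50 to 14.2 in G174 against 1.73 to 1.90 in G184. When each gene was divided by its longest transcript, Tenm3 remained the leading teneurin in the tumors of G174 and G144 and Tenm4 in those of G164 and G184.

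**Figure D2:**
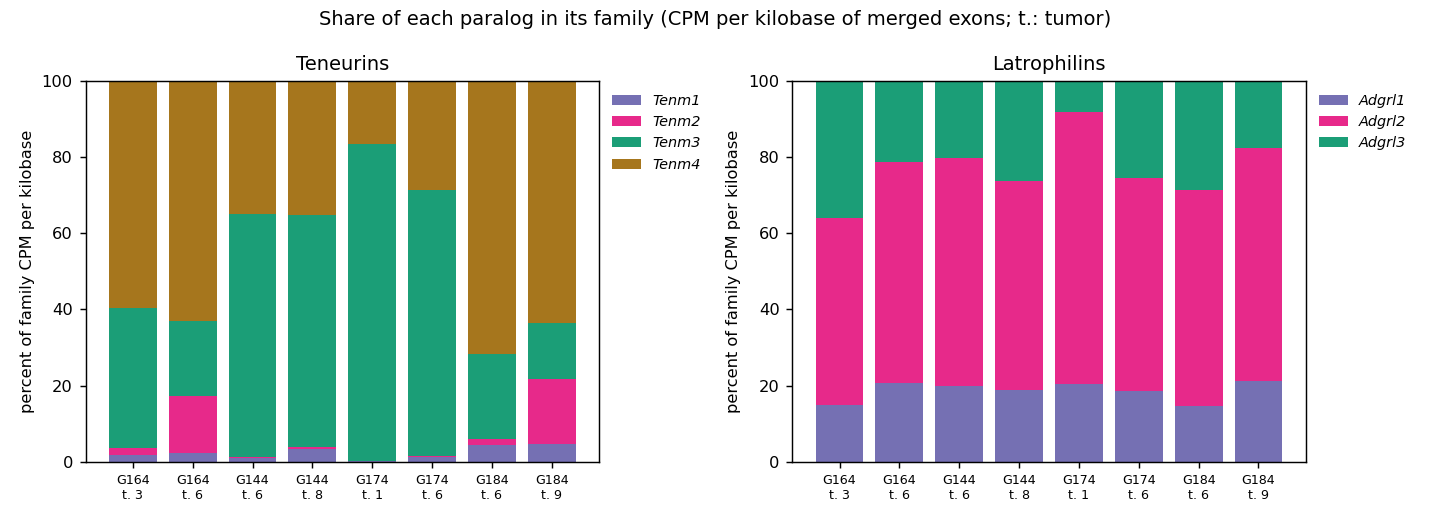
Share of each paralog in the summed CPM per kilobase of merged exons of its family, in percent, with 1 stacked bar per tumor. Tenm3 took 60.8% to 83.1% of the teneurin level in G144 and G174 and 14.7% to 36.7% in G164 and G184, while Adgrl2 was the largest share of the latrophilins in every tumor. Tenm3 was picked for its values, so the teneurin shares are a description.

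The receptors showed no such split. Adgrl2 (ENSMUSG00000028184.12, chromosome 3, 148815583 to 148990555, minus strand), a latrophilin that binds teneurins and FLRT proteins, was the most abundant per length of the 7 genes when averaged over the tumors. It had 117 and 118 CPM in G164, against 89.3 and 98.9 CPM in G144, and 128 and 100.2 CPM in G174, against 113 and 132 CPM in G184, in rising order of tumor number. The highest tumor was 1.47-fold above the lowest, the smallest spread of the 7 genes. The heterozygous KO tumors were above their controls without overlap, but the log2 fold change of 0.32 (SE 0.14, edgeR adjusted p = 0.212) did not pass the test. The change was -0.10 (SE 0.14, edgeR adjusted p = 0.650) in the homozygous comparison, -0.43 (SE 0.20, edgeR adjusted p = 0.158) for the difference and 0.38 (SE 0.14, edgeR adjusted p = 0.120) between the controls.

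Adgrl1 (ENSMUSG00000013033.16, chromosome 8, 83900105 to 83941954, plus strand), the receptor of the spider toxin alpha-latrotoxin that gave the family its name, lay between 17.7 and 27.5 CPM in all 8 tumors. Its log2 fold change was 0.30 (SE 0.22, edgeR adjusted p = 0.431) in the heterozygous and -0.10 (SE 0.21, edgeR adjusted p = 0.776) in the homozygous comparison. Its difference was -0.40 (SE 0.30, edgeR adjusted p = 0.364), and its change between the controls was 0.24 (SE 0.21, edgeR adjusted p = 0.481). None of these passed the test. Adgrl1 shares 1107 exon bases with Gm10644, a noncoding gene on the opposite strand with 103 to 296 counts per tumor, and 12.2% of the stranded counts at Adgrl1 were on the opposite strand, against 0.140% to 3.23% for the other 6 genes. Its total was 7785 counts when strand was ignored, since reads in both genes are then left out, and 10830 by strand.

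Adgrl3 (ENSMUSG00000037605.16, chromosome 5, 81020138 to 81825133, plus strand), a latrophilin whose human gene has been linked to attention deficit disorder, varied most among the receptors. It had 108 CPM in tumor 3 and 54.2 CPM in tumor 6 of G164, against 37.8 CPM in tumor 6 and 58.7 CPM in tumor 8 of G144. It had 18.5 CPM in tumor 1 and 57.1 CPM in tumor 6 of G174, against 71.1 CPM in tumor 6 and 47.2 CPM in tumor 9 of G184. The groups overlapped in both comparisons, and the tumors of G174 differed 3.10-fold. The log2 fold change was 0.75 (SE 0.56, edgeR adjusted p = 0.444) in the heterozygous comparison and -0.65 (SE 0.56, edgeR adjusted p = 0.461) in the homozygous comparison. The difference of -1.39 (SE 0.79, edgeR adjusted p = 0.227) did not pass the test, though it did, at -2.39, without G174 tumor 6 (edgeR adjusted p = 0.0439). Between the controls the change was 0.29 (SE 0.55, edgeR adjusted p = 0.752).

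The order of the 7 genes by level differed between mice. In CPM per kilobase of merged exons, Tenm3 in G174 (8.18 ± 5.12) and Adgrl2 in G174 (8.02 ± 1.36) did not differ beyond their spread, and Adgrl1, Adgrl3 and Tenm4 followed within each other's spread at 2.11 to 2.45. In G144 the order was Adgrl2 (6.63 ± 0.48), Tenm3 (4.57 ± 0.98), then Adgrl3, Tenm4 and Adgrl1 at 2.23 to 2.72, again within their spread. In G164 Adgrl2 (8.28 ± 0.02) was followed by Adgrl3 (4.56 ± 2.13), Adgrl1 (2.74 ± 0.29), Tenm4 (1.62 ± 0.07) and Tenm3 (0.743 ± 0.319). Adgrl3 and Adgrl1 lay within their spread of each other there. G184 had the same order, with Adgrl2 at 8.62 ± 0.93 and Tenm3 at 0.341 ± 0.122 (SD, n = 2 tumors each). Tenm1 and Tenm2 were at most 0.224 on this scale in the mean of any mouse. Divided by the longest transcript instead, Adgrl3 moved above Tenm3 in the mean of all tumors (8.32 against 3.95). On that scale Adgrl2 was also above Tenm3 in both G174 tumors. It had 21.1 against 13.5 in tumor 1 and 16.6 against 5.21 in tumor 6.

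Among the 6 genes that could be tested, few passed. In the heterozygous comparison 0 passed by edgeR, 3 had an unadjusted p under 0.05 (Tenm1, Tenm2 and Tenm4) and DESeq2 called 2 (Tenm2 and Tenm4). In that comparison 4.01% of all genes tested passed, 2.72% higher and 1.29% lower in the KO. In the homozygous comparison 1 passed by edgeR, Tenm4, and 2 by DESeq2, Tenm4 and Tenm2 (DESeq2 adjusted p = 0.0108 for Tenm2, lower in the KO), against 13.1% of all genes, 5.44% higher and 7.7% lower. For the difference 2 passed by edgeR and by DESeq2, Tenm4 higher and Tenm2 lower, against 25.1% of all genes, 12.0% higher and 13.1% lower. Between the controls 1 passed by edgeR and by DESeq2, Tenm4, against 12.6% of all genes, 6.17% higher and 6.4% lower. These shares of all genes are by edgeR. DESeq2 called 2802 of 20036 genes in the heterozygous comparison and 4577 of 20466 in the homozygous comparison. It called 6494 of 22187 for the difference and 4484 of 19606 between the controls. With no filter on low counts, edgeR called 2614 of 39660 genes in the heterozygous comparison and 4575 in the homozygous comparison. It called 6537 for the difference and 4158 between the controls. Of the 6 genes, 3 then passed in the heterozygous comparison (Tenm1, Tenm2 and Tenm4). There were 2 in the homozygous comparison and 2 between the controls (Tenm2 and Tenm4), and 3 for the difference (Tenm2, Tenm4 and Adgrl3). Without both tumors with muscle RNA 0 passed in any comparison by edgeR, with 1 to 2 at an unadjusted p under 0.05; DESeq2 was not run without these tumors.

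**Figure D3:**
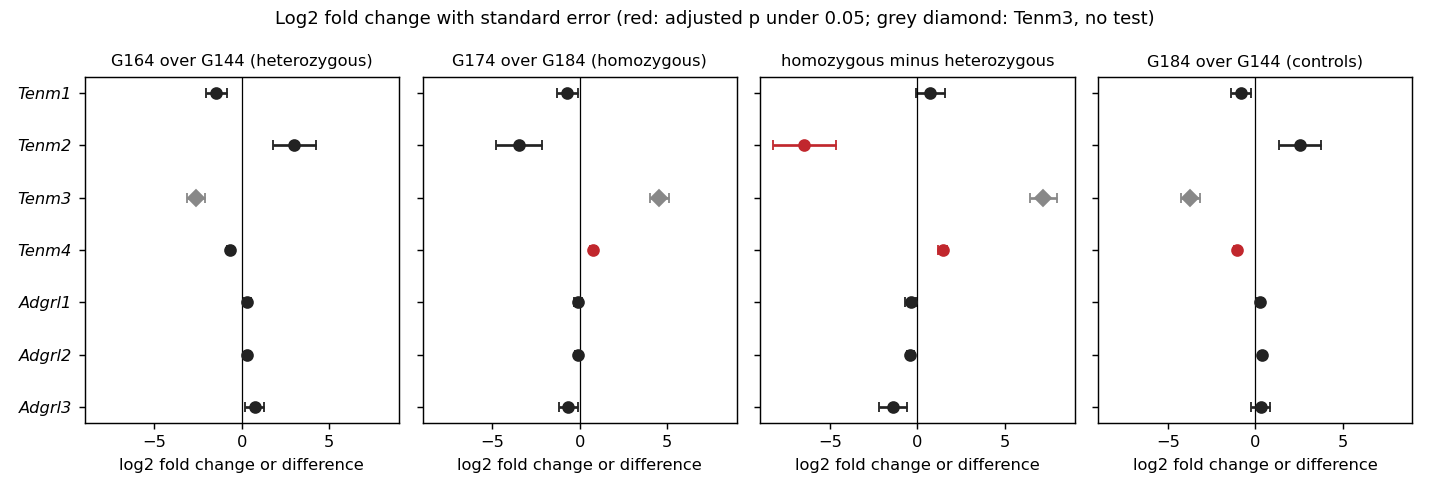
Log2 fold change of each gene in the 4 comparisons (x axis; the third panel is the homozygous minus the heterozygous change), with the standard error of the edgeR fit over all 8 tumors as bars. Red points had an adjusted p under 0.05 and grey diamonds are Tenm3, which was picked for its values and not tested; Tenm4 lies on the same side of 0 as Tenm3 in all 4 panels and Tenm2 on the opposite side.

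Over the 8 tumors of 4 mice, log2 CPM of Tenm3 and Tenm4 ran together (Pearson r = 0.89, Spearman rho = 0.93). Many genes ran with Tenm3 at least as closely. Of 13427 protein-coding genes with a mean of at least 1 CPM, a rho of 0.952 with Tenm3 ranked 96 and one of 0.905 ranked 372. Tenm2 ran against Tenm3, with r = -0.79 and rho = -0.79. Among the receptors, Adgrl1 and Adgrl2 had r = 0.73 and rho = 0.81. No correlation of Tenm3 or Tenm4 with a latrophilin was positive, and they lay between -0.66 and -0.44 by Pearson r. Tumors of a mouse share genotype and age, so these values are descriptions over few independent animals.

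**Figure D4:**
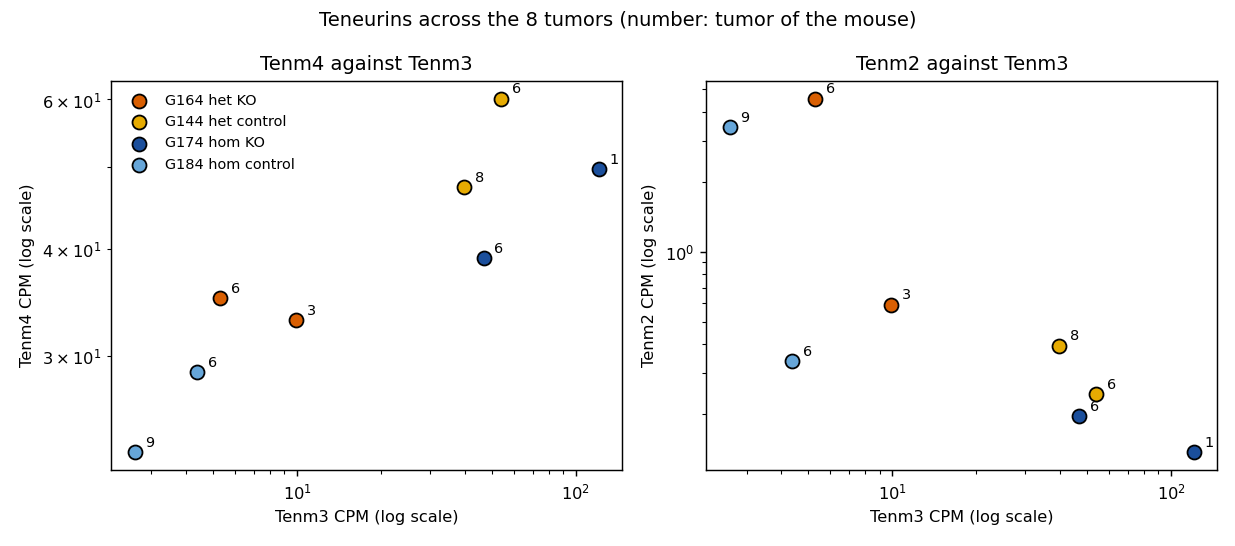
Tenm4 (left) and Tenm2 (right) against Tenm3 in CPM on log axes, with 1 point per tumor, its number beside it and the mouse by color. In the left panel the tumors of G174 and G144 stand at the upper right, at 39.7 to 121 CPM of Tenm3 and 39.0 to 60.1 CPM of Tenm4; in the right panel G164 tumor 6 and G184 tumor 9 stand at the upper left.

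The protein-coding genes whose log2 CPM followed Tenm3 most closely over the 8 tumors, of 13427 genes with a mean of at least 1 CPM, were Mrps10 (Pearson r = 0.998), Ube2g1 (0.995), Dnajc18 (0.993), Slc39a10 (0.991) and Fbp1 (0.988). Mrps10 encodes a mitochondrial ribosomal protein and Fbp1 the gluconeogenic enzyme fructose-bisphosphatase. Fbp1 was the one with changes nearest in size, at a mean of 4.64 CPM in G164 against 17.9 CPM in G144 and 25.4 CPM in G174 against 2.68 CPM in G184. Mrps10 had 34.2 CPM in G164 against 43.4 CPM in G144, and 45.3 CPM in G174 against 32.0 CPM in G184. By Spearman rho, Mrps10 and Dnajc18 tied at rank 1, while Fbp1 ranked 13, Ube2g1 96 and Slc39a10 372. Ties at the top thus left no clear set of 5 most similar genes by rho.

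For Tenm4 the most similar genes were Pycr1 (r = 0.992), an enzyme of proline synthesis, Insig1 (0.992), a sterol sensor that restrains cholesterol synthesis, Bpnt1 (0.987), Metrn (0.979) and Poll (0.977). For Tenm2 they were Tchh (r = 0.952), which encodes the hair follicle protein trichohyalin, Zfp57 (0.950), Mppe1 (0.950), Klk8 (0.948), a serine protease of keratinizing skin, and Heyl (0.947). By Spearman rho, those of Tenm4 ranked 1 to 64. Of those of Tenm2, Tchh, Zfp57 and Mppe1 tied at rank 35, Klk8 ranked 309 and Heyl 613. Most tumors had few Tenm2 counts, as given above. Tchh averaged 110 CPM in G164 against 1.09 CPM in G144, and 0.869 CPM in G174 against 10.6 CPM in G184.

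The 10 protein-coding genes nearest to Tenm3 that could be tested, 5 on each side at 74.4 to 5686 kilobases, moved less. Their log2 fold changes lay between -0.88 and 0.68 in the heterozygous and between -0.53 and 1.21 in the homozygous comparison. For the difference, 5 of the 10 passed, all higher: Dctd (1.80, edgeR adjusted p = 0.0240), Neil3 (1.67), Spcs3 (1.49), Rwdd4a (1.26) and Ing2 (0.77), where 25.1% of all genes passed and 12.0% were higher. Of the 10 nearest genes of each other member, edgeR called, in either direction, 0 at Tenm1 (1 at an unadjusted p under 0.05), 3 at Tenm4, 4 at Adgrl2, 5 at Adgrl3, 6 at Adgrl1 and 7 at Tenm2. Dctd, the nearest on the side of lower coordinates, encodes a deaminase of pyrimidine metabolism. No stretch of 50 bases was shared between transcripts of different members.

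Some marker lists differed along the same split of mice as Tenm3 and Tenm4, and others overlapped across it. T cell markers summed to 8.47 to 9.11 CPM in G174 and 12.3 to 13.8 CPM in G144, against 26.6 to 32.8 CPM in G164 and 25.7 to 28.2 CPM in G184, and 8 of 8 were lower by the difference of the comparisons. Macrophage markers summed to 248 to 339 CPM in G174 and G144, against 453 to 610 CPM in G164 and G184, with 6 of 8 lower. Mitosis markers summed to 744 to 1380 CPM in G174 and G144, against 353 to 735 CPM in G164 and G184, with 6 of 8 higher. Adipocyte markers summed to 12.8 to 26.3 CPM in G174 and G144, against 33.0 to 96.8 CPM in G164 and G184, with 5 of 6 lower. None of these 4 lists overlapped across the split. For the difference, edgeR called 12.0% of all genes higher and 13.1% lower. The share of all genes without overlap across the split was not counted. Schwann cell markers, a list of the peripheral glia, summed to 491 to 588 CPM in G174 and G144 against 466 to 648 CPM in G164 and G184, which overlapped, with 1 of 7 tested higher and 1 lower. Fibroblast markers summed to 1045 to 2022 CPM in G174 and G144 against 1523 to 3012 CPM in G164 and G184, with 2 of 8 lower, and these sums overlapped. Endothelial markers summed to 122 to 177 CPM in G174 and G144 against 171 to 202 CPM in G164 and G184, which also overlapped, with 3 of 8 lower. None of these markers was at 0 in all tumors. In bulk RNA, fewer cells of a type and less RNA per cell cannot be told apart, and the part of these cell types in the teneurin values was not tested.

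The partners of the families were followed in 3 lists. Of 11 other binding partners of latrophilins, the FLRT, UNC5 and neurexin families and Cntn6, 9 could be tested, while Unc5d and Cntn6 were too low. Nrxn3, a neurexin, had 6.08 and 3.95 CPM in G164 against 0.259 and 0.287 CPM in G144, and rose in the heterozygous KO with a log2 fold change of 4.19 (SE 0.62, edgeR adjusted p = 0.0278). It was at 0.271 to 0.609 CPM in G174 and 0.233 to 0.705 CPM in G184, and its difference was -4.29 (SE 0.84, edgeR adjusted p = 0.0140). Flrt1, a membrane protein that binds latrophilins, had 0.107 and 0.0903 CPM in G174 against 0.367 and 0.964 CPM in G184 and fell in the homozygous KO (log2 fold change -2.73, SE 0.62, edgeR adjusted p = 0.0335), with a difference of -4.05 (SE 0.84, edgeR adjusted p = 0.0169). No other gene of the list passed in these comparisons by edgeR, while DESeq2 called 2 higher in the heterozygous comparison, 1 lower in the homozygous comparison and 2 lower for the difference. Over all genes, edgeR called 4.01%, 13.1% and 25.1% in these comparisons and 12.6% between the controls. DESeq2 called 2802 of 20036, 4577 of 20466 and 6494 of 22187 genes, and 4484 of 19606 between the controls. Between the controls 0 of the 9 genes of the list passed by edgeR or DESeq2, with 2 at an unadjusted p under 0.05. Flrt3, the most abundant, had 98.9 and 84.6 CPM in G184 against 77.8 and 90.8 CPM in G144, a log2 fold change of 0.12 (SE 0.15, edgeR adjusted p = 0.623). The median log2 change of the list was 0.41 in the heterozygous and -0.05 in the homozygous comparison, -0.28 for the difference and 0.34 between the controls, against 0.02, -0.00, -0.02 and 0.01 over all genes.

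Of 14 intracellular and signaling partners, all could be tested. In the heterozygous comparison 0 of 14 passed by edgeR, with 5 at an unadjusted p under 0.05 and 1 called higher by DESeq2. In the homozygous comparison 0 of 14 passed by edgeR, with 4 at an unadjusted p under 0.05 and 3 called lower by DESeq2. Between the controls 0 of 14 passed by edgeR, with 5 at an unadjusted p under 0.05 and 3 called higher in G184 by DESeq2. In the same order, edgeR called 4.01%, 13.1% and 12.6% of all genes. DESeq2 called 2802 of 20036, 4577 of 20466 and 4484 of 19606 genes. Gnas, the stimulatory G protein alpha subunit, was the most abundant of the list. It had 514 and 548 CPM in G164 against 593 and 634 CPM in G144 (log2 fold change -0.21, SE 0.10, edgeR adjusted p = 0.248), and 558 and 582 CPM in G174 against 498 and 527 CPM in G184 (0.15, SE 0.10, edgeR adjusted p = 0.337). Its heterozygous change turned to 0.099 with unstranded counts, and its change between the controls was -0.26 (SE 0.10, edgeR adjusted p = 0.131).

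For the difference, edgeR called 13.1% of all genes lower and 12.0% higher, and DESeq2 called 3222 lower and 3272 higher of 22187. Of these 14 partners, 4 were lower and 0 higher by edgeR and by DESeq2. They were Gnai1, an inhibitory G protein subunit (-2.30, edgeR adjusted p = 0.0393), Shank1 and Shank3, scaffolds that bind the latrophilin tail (-2.12 and -1.50, edgeR adjusted p = 0.0349 and 0.0246) and Gnaq, a G protein subunit that activates phospholipase C (-0.96, edgeR adjusted p = 0.0349). Shank3 had 6.19 and 4.08 CPM in G174 and 4.39 and 5.79 CPM in G144, against 7.36 and 8.77 CPM in G164 and 9.17 and 9.20 CPM in G184, without overlap. Gnaq had 103 and 76.1 CPM in G174 and 74.2 and 95.4 CPM in G144, against 117 and 112 CPM in G164 and 120 and 137 CPM in G184, also without overlap. Shank1 had 0.213 to 0.472 CPM in G174 and G144 against 0.513 to 1.12 CPM in G164 and G184, without overlap. Gnai1 did overlap, at 0.807 to 4.16 CPM in G174 and G144 against 3.15 to 7.22 CPM in G164 and G184. The share of all genes without overlap across this split was not counted. The median log2 change of the list was 0.12 in the heterozygous and -0.13 in the homozygous comparison, -0.27 for the difference and 0.14 between the controls.

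Of 27 other adhesion GPCRs, 24 could be tested. In the heterozygous comparison 2 were higher, Adgre4 (log2 fold change 1.91, edgeR adjusted p = 0.0390) and Adgre1 (0.87, edgeR adjusted p = 0.0425), and 0 lower, against 2.72% and 1.29% of all genes. In the homozygous comparison 1 was higher, Adgrg7 (3.41, edgeR adjusted p = 0.0339), and 5 were lower, among them Adgre4 (-3.84), Adgrf4 (-2.24) and Adgrg5 (-2.08), against 5.44% and 7.7% of all genes. For the difference 2 were higher and 7 lower, led by Adgre4 (-5.75), Adgrf4 (-4.29), Adgrb2 (-3.88) and Adgrg5 (-2.52), against 12.0% and 13.1% of all genes. Between the controls 3 were higher in G184 and 0 lower, Adgre4 (2.42), Adgrg5 (1.92) and Adgre1 (1.12), against 6.17% and 6.4% of all genes. DESeq2 called 5 higher and 0 lower in the heterozygous comparison, 5 higher and 6 lower in the homozygous comparison, 3 higher and 8 lower for the difference, and 5 higher and 1 lower between the controls. Over all genes it called 1398 higher and 1404 lower of 20036, and 2152 higher and 2425 lower of 20466, in the first 2 comparisons. It called 3272 higher and 3222 lower of 22187 for the difference, and 2070 higher and 2414 lower of 19606 between the controls. Adgre1, also in the macrophage list, encodes the macrophage antigen F4/80, and Adgre4 and Adgrg5 are expressed on leukocytes. The median log2 change was 0.42 in the heterozygous and -0.44 in the homozygous comparison, -0.76 for the difference and 0.41 between the controls. Without both tumors with muscle RNA, the Adgrf4 difference was -4.32 and was no longer called.

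Adgrg5 was at 2.33 and 2.30 CPM in G174 against 8.82 and 10.7 CPM in G184, and at 3.66 and 3.35 CPM in G164 against 2.80 and 2.35 CPM in G144. Its fall in the homozygous KO (SE 0.20, edgeR adjusted p = 0.00324) and that of Adgre4 (SE 0.39, edgeR adjusted p = 0.00366) passed under all 17 alternatives. Adgrg5 also kept its calls for the difference and between the controls, Adgre4 for the difference and Adgrf4 for the difference, in all 8 fits that each left out 1 tumor. The other list calls followed gene by gene were each lost in at least 1 of these fits. Those of Adgre1 for the difference and of genes counted but not named were not followed in this way. Nrxn3 passed in 4 of 8 for the heterozygous comparison, where it was lost without either tumor of G164 or of G144, and in 7 of 8 for the difference, where it was lost without G144 tumor 6. Flrt1 passed in 3 of 8 for the homozygous comparison and 6 of 8 for the difference. Gnai1, Shank1 and Gnaq each passed in 2 of 8 and Shank3 in 3 of 8. Adgrg7 passed in 2 of 8 and Adgrb2 in 2 of 8. In the heterozygous comparison Adgre4 passed in 3 of 8 and Adgre1 in 2 of 8.

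Without both tumors with muscle RNA, the binding partners and the signaling partners had 0 calls in each of the 4 comparisons by edgeR. The other adhesion GPCRs then had 0 calls in the heterozygous comparison and between the controls, 2 in the homozygous comparison, both lower, and 1 higher and 4 lower for the difference.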

How the data were processed

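The authors aligned paired reads of 8 tumors to GRCm38/mm10 with STAR after bcl2fastq (versions and annotation release not given in the sources used here) and deposited raw counts per gene for 64 lane files (2 runs of 4 lanes per tumor), unstranded and by strand. Their summed table of each mouse equals the unstranded sums in all 221524 cells. Here, reverse-strand counts were summed per tumor; rows that name no gene were left out. Genes were kept by filterByExpr (minimum count 10), leaving 22187 of 55385 genes with 99.96% of the counts. They were TMM-scaled and 1 quasi-likelihood model of all 8 tumors was fitted in edgeR 4.0.16 (R 4.3.3), with Benjamini-Hochberg adjustment and a threshold of 0.05. The standard error (SE) is the log2 fold change divided by the root of the F statistic. The common biological coefficient of variation was 0.229 (residual degrees of freedom 4, prior degrees 3.06). An exact permutation test of 2 tumors against 2 cannot go below p = 0.333, so none is given. Lengths and places come from GENCODE M21, found with the same version for 54487 gene identifiers, with another version for 657 and not for 241; promoters come from RefSeq (GRCm38.p6), where all 7 members matched.

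The members and the lists were chosen with earlier results of these data known. All 7 members are named; from each list, up to 4 genes past the threshold with the largest log2 change per comparison, or the most abundant gene; as similar genes, the 5 with the highest r for each member named as changed. The neighbors of Tenm3 fall outside this rule and were chosen after their values were seen. Other settings tried were unstranded counts, each run alone, DESeq2 size factors, library size only, no filter, DESeq2 1.42.0, only the 2 mice compared and each tumor left out. Leaving out both tumors with skeletal muscle RNA was chosen after seeing the data. The result of 1 gene is not reported here. The scripts were tested on simulated data. Python 3.11.15, pandas 2.3.3 and numpy 2.4.6 were used for tables.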

Additional observations from a re-analysis of the deposited data

Results flagged for a closer look

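Several genes changed differently in the homozygous than in the heterozygous comparison, by the test of the difference itself (homozygous minus heterozygous log2 change, edgeR adjusted p under 0.05). By this test 25.1% of all genes passed, 12.0% higher and 13.1% lower. Among the teneurins the genes that passed were Tenm4, at 1.44, and Tenm2, at -6.49. For Tenm3 the difference was 7.20. It was not tested, since Tenm3 was picked for it, and stands here because all tumors of each KO mouse moved away from their control in opposite directions.

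Among the binding partners of latrophilins, the difference was -4.29 for Nrxn3 and -4.05 for Flrt1. Among the signaling partners it was -2.30 for Gnai1, -2.12 for Shank1, -1.50 for Shank3 and -0.96 for Gnaq. Among the other adhesion GPCRs it was -5.75 for Adgre4, -1.96 for Adgre1, -4.29 for Adgrf4, -2.52 for Adgrg5 and -3.88 for Adgrb2. As given above, the calls of Tenm2, Nrxn3, Flrt1, Gnai1, Shank1, Shank3, Gnaq and Adgrb2 each depended on single tumors. The Tenm4 call was lost without both tumors with muscle RNA. The same contrast separates the younger mice G174 and G144 from the older mice G164 and G184, so genotype and age cannot be told apart in any of these values.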

How the results depend on the processing

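With 2 tumors of 1 mouse per group, counts of called genes moved widely with the tumors and the test. The heterozygous comparison had 890 called genes, but 2614 with no filter, 2802 by DESeq2, 1394 with only the 2 mice compared, 16 to 1087 with 1 tumor left out and 1 without both tumors with muscle RNA. The homozygous comparison had 2917, but 4575 with no filter, 4577 by DESeq2, 980 with only its 2 mice, 532 to 2442 with 1 tumor left out and 788 without both muscle tumors. The difference had 5579, but 2079 to 4817 and 1450 under these last 2 settings, and the controls had 2787, but 4484 by DESeq2, 1534 with only their 2 mice, 205 to 3164 and 91. A lone remaining tumor was assumed to vary like the other groups. Scaling by library size only gave 754 genes higher and 148 lower in the heterozygous comparison, against 604 and 286, and 1895 higher and 3240 lower for the difference, against 2672 and 2907, with the median of all genes at -0.12 for the difference. The DESeq2 test gave 1398 higher and 1404 lower in the heterozygous comparison. The cause of these shifts was not tested.

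Tenm2 and Tenm4 kept their signs under every alternative run. Tenm3 did too, but it was picked for its signs and its groups did not overlap, so this is no test of them. Signs turned only for values that passed no test. With 1 tumor left out, Tenm1 ranged from -0.15 to 1.33 for the difference, negative without G144 tumor 8 (-0.14) or G174 tumor 6, and from -1.40 to 0.040 between the controls, positive without G144 tumor 8. Without both muscle tumors it was at -0.34 and 0.042. Adgrl1 ranged from -0.36 to 0.25 in the homozygous comparison and from -0.094 to 0.51 between the controls, turning without G184 tumor 9. Adgrl2 ranged from -0.29 to 0.085 in the homozygous comparison, turning without G174 tumor 6 or G184 tumor 9. Between the controls, Adgrl3 ranged from -0.044 to 0.65 and Flrt3 from -0.0088 to 0.25, turning without G184 tumor 6. Gnas was at 0.099 in the heterozygous comparison with unstranded counts. No paired analysis was possible because the mice share only tumor number 6, and nothing in the labels ties tumors of that number to each other.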
